A study of Saccharomyces cerevisiae with 12 samples.

Results

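The 5 genes of peroxide and superoxide defence, AHP1, TRX1, SRX1, CCP1 and SOD1, were followed in budding yeast strains that lack the iron regulators Aft1 or Aft1 and Aft2. They were chosen by gene symbol, and selected on mutant over wild-type ratios of these same slides, so their values are described here and not tested. They make up 5 of the 3127 named genes measured on all 6 slides, and each was read from 1 spot among 6912. Each slide carried the labelled RNA of a mutant and of its wild-type parent, and 2 slides formed each comparison. The strain labelled Y18daft2 (aft1 aft2 double deletion) was set against CM3260 (wild type) in YPD rich medium at an optical density of 0.5. The same strains were compared after 200 mM hydroxyurea for 2 hours, added at that density. A BY4741 aft1 deletion strain was set against BY4741 (wild type) in the same hydroxyurea treatment. There was no aft1 comparison in YPD among these slides, and hydroxyurea and YPD RNA never shared a slide. Nothing in the labels says whether the slides of a comparison came from separate cultures, so the spread between them may be technical.

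Aft1 and Aft2 activate the genes of iron uptake in budding yeast, and hydroxyurea inhibits ribonucleotide reductase, an enzyme that needs iron, and so slows DNA replication. Cells remove superoxide with superoxide dismutases, which turn it into hydrogen peroxide. Peroxide is then reduced by peroxiredoxins, which draw electrons from thioredoxin, and by heme peroxidases and catalases. Ahp1 is a thioredoxin-dependent peroxiredoxin that prefers organic hydroperoxides, and Trx1 is a cytosolic thioredoxin. Srx1, sulfiredoxin, restores peroxiredoxins that peroxide has overoxidised. Ccp1 is the mitochondrial cytochrome c peroxidase, which carries heme and therefore iron. Sod1 is the cytosolic superoxide dismutase, which carries copper and zinc.

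Values are log ratios, read here as log2, although no source used here states the base. Each slide is present as a weak and a strong scan, after the French words in the titles. Mutant over wild type is the likely direction, not a settled one. It rests on AFT1, which read -2.78 and -3.31 on the slides of the aft1 strain once the ratios were turned this way (mean -3.04, SE 0.204, n = 2 slides; adjusted p = 0.000656, limma). In the strain labelled Y18daft2, AFT1 read -0.30 and 0.25 in YPD and -0.29 and -0.06 in hydroxyurea, so its label is not borne out by this spot, and the direction there is carried over from the aft1 slides. Each SE and interval given here comes from the limma fit, which pools spread over the slides of all comparisons and moderates it across genes. A gene therefore has the same SE in every comparison, and it does not measure the spread of the 2 slides averaged. Normalised values below had each scan centred on its median and the trend common to the slides removed. Over all 3127 genes the 5th and 95th percentiles of the mean ratio were -0.31 and 0.33 in YPD, -0.26 and 0.19 in hydroxyurea for Y18daft2, and -0.31 and 0.32 for aft1. Across those genes, which are not independent of each other, the slides of a comparison correlated at 0.208, -0.265 and 0.382 in the same order. The slides of Y18daft2 in hydroxyurea were thus the least alike.

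The deposited ratios of the channels already set the genes apart. AHP1 in YPD read 2.13 (weak scan) and 1.84 (strong scan) on the slide with Y18daft2 in channel 2, against -1.05 and -0.41 on the slide with it in channel 1. TRX1 did likewise in YPD, at 0.91 and 1.28 against -0.57 and -0.95. Both genes therefore reversed when the channels were exchanged. On the aft1 slides SRX1 reversed, at 0.70 and 1.83 against -0.70 and -1.05. CCP1 did so there as well, at 0.75 and 1.92 against -0.52 and -0.62, and TRX1, at 0.44 and 1.63 against -0.21 and -0.28. These columns were not centred. Over all spots their medians were -0.13 (weak scan) and 0.85 (strong scan) with aft1 in channel 2, and -0.04 and -0.12 on the other slide. The 1.83, 1.92 and 1.63 include that offset. Median-centred and turned to mutant over wild type, SRX1 read -0.83 and -0.97 against -0.66 and -0.91. CCP1 read -0.88 and -1.06 against -0.48 and -0.48, and TRX1 -0.57 and -0.77 against -0.17 and -0.14. SOD1 reversed in none of the 3 comparisons. Its deposited values were 0 or above in all 12 columns, from 0.26 to 1.53 where they were not exactly 0.

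**Figure D1:**
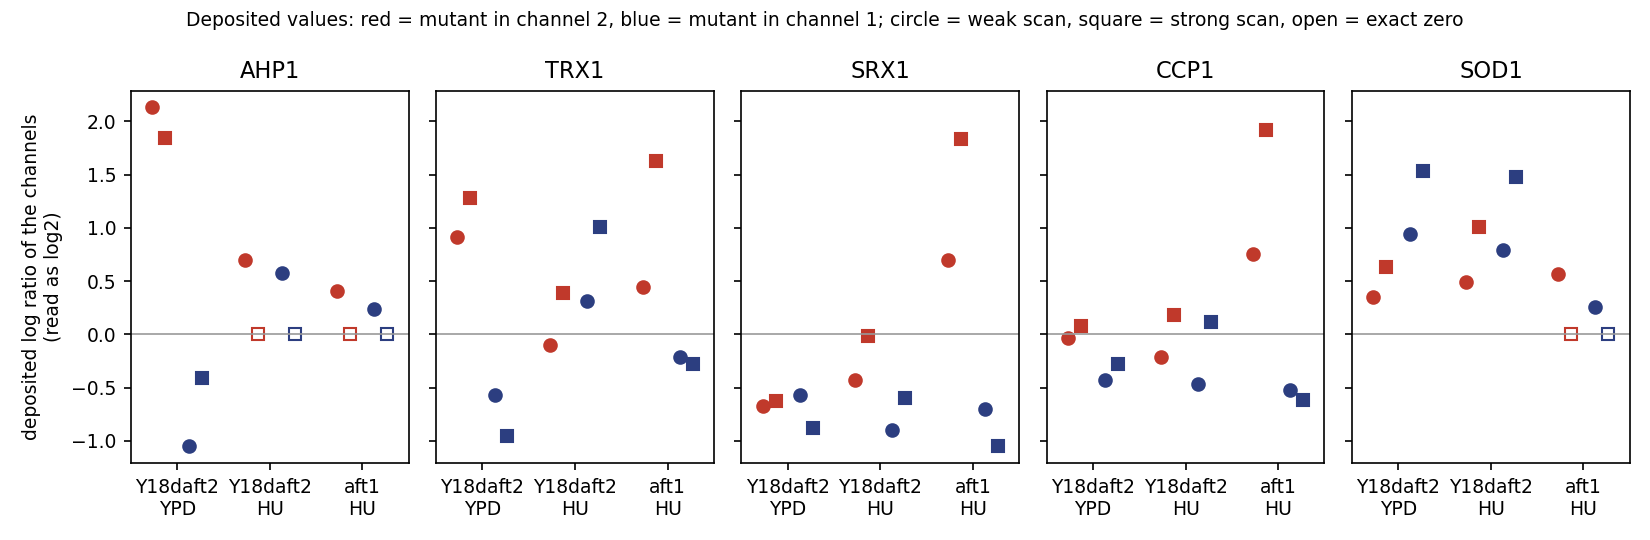
Deposited log ratio of the channels (vertical axis, read as log2, columns not centred) for each gene in the 12 columns, with Y18daft2 YPD, Y18daft2 hydroxyurea (HU) and aft1 hydroxyurea along each horizontal axis. Red marks have the mutant in channel 2 and blue marks in channel 1, circles are weak scans, squares strong scans and open squares exact zeros; red lies above 0 and blue below it for AHP1 and TRX1 in YPD and for TRX1, SRX1 and CCP1 in the aft1 comparison, while SOD1 has no value below 0.

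Exact zeros stood in strong scans of AHP1 and SOD1. AHP1 was at exactly 0 in 4 of its 6 strong scans, those of both hydroxyurea comparisons, and SOD1 in 2 of 6, those of the aft1 comparison. TRX1, SRX1 and CCP1 had 0 such values, and none of the 5 genes was at 0 in a weak scan. Of all strong-scan values, 623 of 41472 were exactly 0, and they were treated as missing. Weak scans held nearly as many, 518 of 41472, and those were kept as values. AHP1 in both hydroxyurea comparisons and SOD1 in the aft1 comparison therefore rest on weak scans alone.

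In YPD, AHP1 and TRX1 were lower in the strain labelled Y18daft2 than in CM3260, and SOD1 was higher. AHP1 read -1.04 and -1.20 on the slides after normalisation, with a mean of -1.12 (SE 0.167, n = 2 slides), a 2.18-fold lower level. It was the 5th lowest of the 3127 genes. TRX1, the thioredoxin that reduces Ahp1 and other peroxiredoxins, read -0.71 and -1.14, with a mean of -0.92 (SE 0.181), 1.90-fold lower and the 8th lowest gene. The slides agreed in direction for both genes, and the spread between them (SD 0.114 and 0.302) was smaller than the means. By adjusted p under 0.05 in limma, 1 of the 5 genes (AHP1) was called, where 0.256% of all genes were. This comparison was among those used to select the genes, and nothing is read from the count. AHP1 was called in 5 of the 18 other settings that gave it a value, and in none of the 6 that left out a slide.

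The strong scan set the size of the TRX1 value in part. With Y18daft2 in channel 1 it read -1.61 (strong scan) against -0.66 (weak scan). With it in channel 2 the scans read -0.74 and -0.68. From weak scans alone the TRX1 mean was -0.67, and from strong scans alone -1.17. AHP1 had the opposite order, with -1.34 (weak scan) and -0.75 (strong scan) where Y18daft2 was in channel 2, and -1.24 and -1.17 on the other slide.

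SOD1 read 0.86 and 0.71 in YPD after normalisation, with a mean of 0.79 (SE 0.181, n = 2 slides), a 1.73-fold higher level that ranked 3116th from the lowest of 3127. The scans of each slide were close to one another, at 0.86 and 0.86 on one slide and 0.69 (weak) and 0.74 (strong) on the other. The agreement between the slides appeared only with the trend removed. When columns were only median-centred, SOD1 read -0.60 and -0.78 (weak and strong scans) where Y18daft2 was in channel 2 and 1.20 and 1.66 on the other slide, with a mean of 0.37. The size of the SOD1 value in YPD therefore depended on how the trend was treated, while its sign as a mean did not.

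CCP1 and SRX1 lay closer to the wild-type level in YPD. CCP1 read -0.03 and -0.46, a mean of -0.24 (SE 0.180) with a 95% interval from -0.66 to 0.17. SRX1 read 0.34 on one slide and -0.35 on the other, so its mean of -0.01 (SE 0.227) averages slides of opposite sign. The 5 genes thus spread over 1.91 log2 units in this comparison, from AHP1 to SOD1, with 4 of 5 of one sign on both slides.

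**Figure D2:**
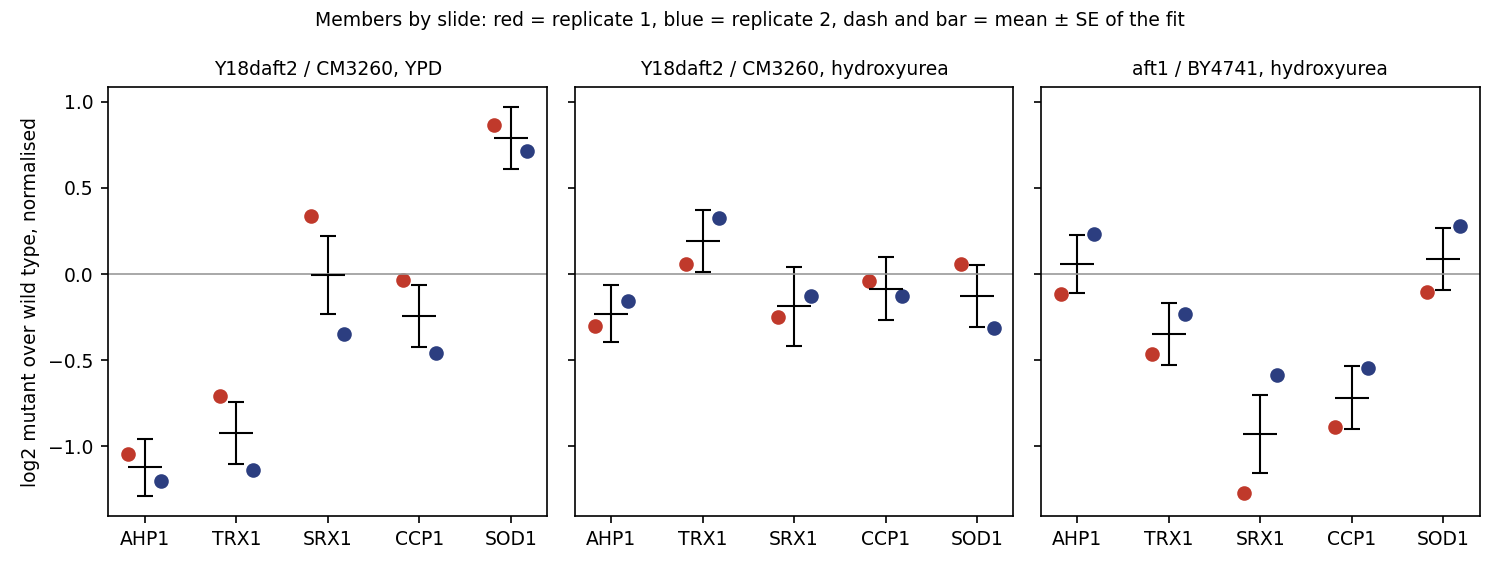
Normalised log2 ratio of mutant over wild type (vertical axis) for the 5 genes in each comparison, with replicate 1 in red, replicate 2 in blue, and the mean ± SE of the fit in black. AHP1 and TRX1 lie below 0 and SOD1 above 0 on both YPD slides, SRX1 and CCP1 lie lowest in the aft1 comparison, and all 5 means lie between -0.23 and 0.19 in the hydroxyurea comparison of Y18daft2.

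In hydroxyurea the same strain pair gave means between -0.23 and 0.19 for the 5 genes. Over all genes the means of this comparison had an SD of 0.157. From the lowest of 3127 genes, AHP1 ranked 215th, SRX1 321st, SOD1 534th, CCP1 802nd and TRX1 2970th. AHP1 read -0.30 and -0.16 (mean -0.23, SE 0.167, n = 2 slides, weak scans only). TRX1 read 0.06 and 0.32 (mean 0.19, SE 0.181). SRX1 read -0.25 and -0.13 (mean -0.19, SE 0.227). CCP1 read -0.04 and -0.13 (mean -0.08, SE 0.180). These 4 genes had the same sign on both slides, but each 95% interval of the mean spanned 0. SOD1 read 0.06 and -0.31, slides of opposite sign with a mean of -0.13 (SE 0.181). The range over the 5 genes was 0.42 log2 units, and 0 of 5 were called, with 0.0959% of all genes called in this comparison. When columns were only median-centred, the slides of AHP1, TRX1 and CCP1 had opposite signs. AHP1 then read -1.06 with Y18daft2 in channel 2 and 1.11 on the other slide (weak scans). In weak and strong scans, TRX1 read -0.26 and -0.46 against 0.84 and 1.10. CCP1 read -0.15 and -0.25 against 0.06 and 0.21, and SRX1 0.07 and -0.05 against -0.37 and -0.51.

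The aft1 strain in hydroxyurea showed low values for a different pair of genes, SRX1 and CCP1. SRX1 read -1.27 and -0.59, with a mean of -0.93 (SE 0.227, n = 2 slides), 1.90-fold lower and the 5th lowest of 3127 genes. CCP1, the heme peroxidase, read -0.89 and -0.54, with a mean of -0.72 (SE 0.180), 1.64-fold lower and the 10th lowest. The SD between the slides of this comparison was 0.484 for SRX1 and 0.244 for CCP1, which the pooled SE does not show. Both slides lay below 0 for both genes, and for both the slide with the mutant in channel 2 was the lower. For SRX1 that slide read -1.54 in the strong scan and -0.999 in the weak scan.

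TRX1 was also below 0 on both aft1 slides, at -0.46 and -0.23 (mean -0.35, SE 0.181), with a 95% interval from -0.76 to 0.06. AHP1 read -0.12 and 0.23 (mean 0.06, SE 0.167) and SOD1 -0.11 and 0.28 (mean 0.09, SE 0.181), both from weak scans alone and with slides of opposite sign. By limma 0 of the 5 genes were called, where 0.192% of all genes were. SRX1 was called in 3 of 19 other settings and CCP1 in 2 of 19.

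Set side by side, the comparisons differed most for TRX1, AHP1 and SOD1 between media. The ratio of Y18daft2 over CM3260 in hydroxyurea minus that in YPD was 1.11 log2 units for TRX1 (95% interval 0.53 to 1.70). It was 0.89 for AHP1 (0.36 to 1.43) and -0.92 for SOD1 (-1.50 to -0.33). For CCP1 it was 0.16 (-0.42 to 0.74) and for SRX1 -0.18 (-0.92 to 0.55). The YPD and hydroxyurea ratios come from different slides, and AHP1 lacks its strong scans in hydroxyurea. These intervals describe genes selected on the same values, and no test was made of them.

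Between strain pairs in hydroxyurea, the ratio in Y18daft2 minus that in aft1 was 0.74 for SRX1 (0.01 to 1.47) and 0.63 for CCP1 (0.05 to 1.22). It was 0.54 for TRX1 (-0.04 to 1.12), -0.21 for SOD1 (-0.80 to 0.37) and -0.29 for AHP1 (-0.82 to 0.25). The strain pairs differ in parent as well as in the deleted genes, and these cannot be told apart.

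The 5 genes lay at different places along the trend that runs through all slides, which is the mean centred channel ratio of a spot in the 8 columns of the other comparisons. For the YPD slides SOD1 held the top place of all 6912 spots, at rank 1, and AHP1 was at percentile 99.2. TRX1 was at percentile 90.0, CCP1 at 69.6 and SRX1 at 37.7. Spots near the top of the trend spread widely. Among the 40 spots nearest to AHP1 on the trend, the YPD ratios ran from -0.92 to 1.02 with a median of -0.06, and 0 of them lay as low as AHP1. The 5 genes were selected on these same ratios, so this count and those that follow are descriptions and lend the values no support.

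Around TRX1 the nearest 40 spots ran from -0.43 to 0.745 in YPD, again with 0 as low. Of the 40 spots nearest to SOD1, all of which lie below it on the trend, 1 had a YPD ratio as high, and their median was 0.03. In the aft1 comparison 0 of the 40 nearest spots were as low as SRX1, and 0 as low as CCP1. Spot intensities were not used here, so the signal over background of these spots is unknown.

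**Figure D3:**
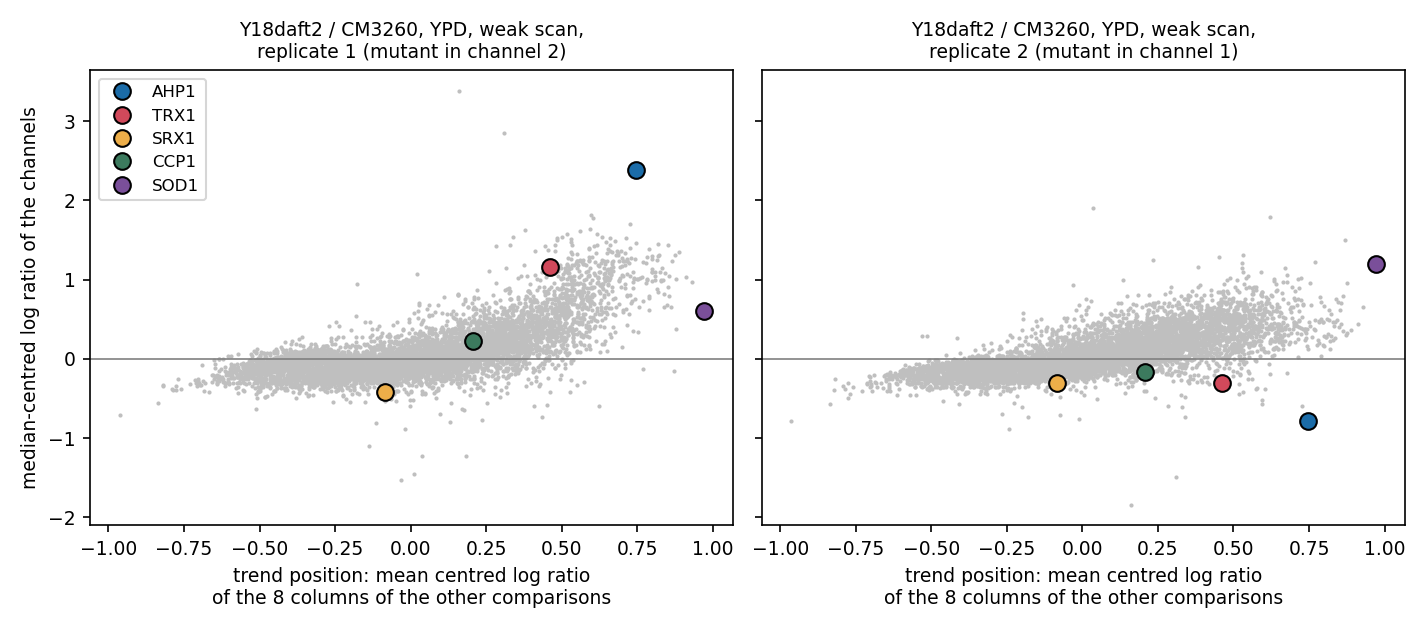
Median-centred log ratio of the channels in the weak scans of the YPD slides (vertical axis) against the trend position of each spot (horizontal axis, mean centred log ratio of the 8 columns of the other comparisons), with other spots in grey. AHP1 lies above the cloud on the slide with the mutant in channel 2 and below it on the slide with the mutant in channel 1, SOD1 lies at the far right end on both, and SRX1 and CCP1 lie in or near the cloud.

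None of the other oxidant defence genes measured passed the test in any of the 3 comparisons. Over all genes 0.256% passed in YPD, 0.0959% in hydroxyurea for Y18daft2 and 0.192% for aft1, so a count of 0 says little about these genes. Of 57 further genes listed for thioredoxin, glutathione, superoxide and peroxide enzymes, NADPH supply and Yap1 control, 29 had a spot with 1 gene name. In YPD 0 of these 29 passed in either direction (limma, adjusted over all genes; 3 at an unadjusted p under 0.05, 2 higher and 1 lower, beside 5.08% of all genes). Their median ratio was 0.01, with 16 above 0, beside a median of 0.001 over all genes. For Y18daft2 in hydroxyurea limma again called 0, and 1 (higher) had an unadjusted p under 0.05, beside 1.57% of all genes. The median there was -0.02, with 12 above 0, beside -0.005 over all genes. In the aft1 comparison limma called 0, and 2 (1 higher, 1 lower) had an unadjusted p under 0.05, beside 4.19% of all genes. There 19 of 29 lay below 0, with a median of -0.13 beside -0.01 over all genes.

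The nearest relatives and partners of the 5 genes gave the following values, none past the threshold. TRX2, the other cytosolic thioredoxin, read 0.75 and -0.59 in YPD, where TRX1 was low on both slides, and -0.83 and -0.37 in the aft1 comparison. Whether the TRX1 and TRX2 spots also bind each other's RNA was not tested. TRR1, the cytosolic thioredoxin reductase, had means of 0.13 in YPD, -0.22 in hydroxyurea and -0.39 in the aft1 comparison. Among the other peroxiredoxins, the nuclear DOT5 had means between 0.02 and 0.16 in the 3 comparisons, and the mitochondrial PRX1 between -0.22 and 0.23. For both the slides had opposite signs in YPD and in hydroxyurea for Y18daft2, as with 0.57 and -0.11 for PRX1 in YPD, and the same sign in the aft1 comparison. TSA1, TSA2, the catalases CTT1 and CTA1, HYR1, YAP1 and SKN7 were not analysed here.

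CCS1, the chaperone that loads copper into Sod1, read 0.43 and 0.39 in YPD (mean 0.41), the comparison in which SOD1 was high. It read -0.13 in hydroxyurea for Y18daft2 and -0.15 for aft1. SOD2, the mitochondrial superoxide dismutase, read 0.14 and -0.41 in YPD, with means of 0.17 and 0.14 in the hydroxyurea comparisons. Among the 29 genes, the means farthest from 0 in YPD were those of ATR1, a membrane transporter, at 0.72, GRX2, a glutaredoxin, at -0.49, and CCS1.

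In hydroxyurea the means farthest from 0 for Y18daft2 were MSN4, a general stress transcription factor, at 0.42, ZWF1, glucose-6-phosphate dehydrogenase, at -0.27, and ATR1 at -0.24. In the aft1 comparison they were GPX2, a glutathione peroxidase family member, at -0.88 (-1.40 and -0.37 on the slides), APE1, a vacuolar aminopeptidase listed as LAP4 among Yap1 targets, at 0.73, and TRX2 at -0.60.

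**Figure D4:**
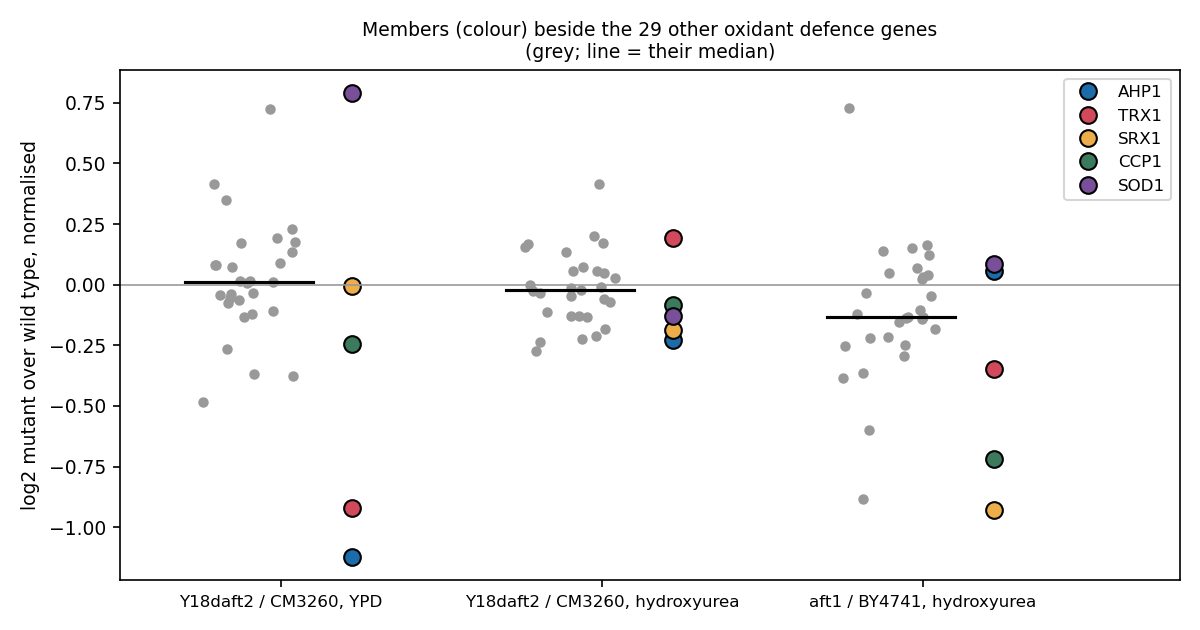
Normalised log2 ratio of mutant over wild type (vertical axis) in the 3 comparisons for the 5 genes in colour and the 29 other oxidant defence genes in grey, with a line at the median of the 29. The grey medians lie at 0.01, -0.02 and -0.13, and AHP1 and TRX1 in YPD, and SRX1 in the aft1 comparison, lie below all grey points.

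Ranked by closeness of the 6 slide values, different genes stood nearest to each of the 5, and SRX1 had CCP1 as its nearest neighbour. The root mean square difference between SRX1 and CCP1 was 0.237 log2 units (Pearson r 0.918 over 6 slides). Next to SRX1 came OPY1 at 0.277 and ATP20, a subunit of mitochondrial ATP synthase, at 0.286. For CCP1 the nearest were ATP20 at 0.159 (r 0.995), CCC1, a vacuolar iron transporter, at 0.162 and CGR1 at 0.178. RDL1, a thiosulfate sulfurtransferase, was nearest to AHP1 at 0.175 (r 0.950), followed by HOM6, homoserine dehydrogenase, at 0.245 and CPR5, a prolyl isomerase of the endoplasmic reticulum, at 0.271.

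TRX1 had PMT4, a protein mannosyltransferase, at 0.143 (r 0.992), then HOM6 at 0.197 and CPR5 at 0.210. AHP1 and TRX1 thus shared HOM6 and CPR5 among their 3 nearest genes. SOD1 had POC4, a proteasome assembly factor, at 0.177, NCE103, carbonic anhydrase, at 0.185 and PRM5 at 0.188. These measures run over 6 slides that share strains and treatment and are descriptions. AHP1, TRX1, SRX1, CCP1 and SOD1 were selected on ratios of these same slides. Members low on the same slides, as SRX1 and CCP1 or AHP1 and TRX1, can rank close or share neighbours through that selection alone. The neighbours were picked as the closest genes, so their r values lend no support. Shared regulation was not tested.

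The chromosomal neighbours with a value lay nearer to 0 than the gene beside them in the comparisons where that gene stood far from 0. In the order of the R64 assembly, CCW12 beside AHP1 (YLR109W) read -0.05 in YPD and YLR108C read 0.27. NFG1 beside TRX1 (YLR043C) read -0.20. For SOD1 (YJR104C), at 0.79 in YPD, the neighbours URA8 and ADO1 read -0.25 and -0.55. In the aft1 comparison CYT2 and MDH1 beside SRX1 (YKL086W) read -0.21 and -0.10, and PAM17 and GPT2 beside CCP1 (YKR066C) read 0.08 and 0.03. These neighbours were looked up after the values of the 5 genes had been seen.

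Genes that mark mating type, the only cell types for which markers were listed here, were read as well. In YPD 4 of 5 alpha-cell genes lay below 0 in Y18daft2, with a median of -0.57, a range from -0.98 to 0.14 and the same sign on both slides for all 5. The 4 measured a-cell genes lay between -0.21 and -0.13, with the same sign on both slides for 0 of them. In hydroxyurea the alpha-cell genes had medians of -0.14 for Y18daft2 and 0.28 for aft1, with the same sign on both slides for 0 and 1 of 5. The a-cell medians there were -0.05 and -0.15, with the same sign on both slides for 1 and 0 of 4. By limma 0 genes of either list passed in any comparison, where 0.256%, 0.0959% and 0.192% of all genes did. At an unadjusted limma p under 0.05 there were 3 alpha-cell genes in YPD (5.08% of all genes) and 1 in the aft1 comparison (4.19%). Their part in the values of AHP1, TRX1 and SOD1 was not tested.

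The larger values kept their sign under the other treatments of the data that were run with ratios turned by channel, apart from leaving out a slide of the comparison itself. AHP1 in YPD ranged from -1.41 to -1.01 over 15 settings and TRX1 from -1.17 to -0.67 over 16. SOD1 in YPD ranged from 0.37 to 0.83 over 15. In the aft1 comparison SRX1 ranged from -1.07 to -0.81 and CCP1 from -0.95 to -0.66, each over 16. Leaving out a slide of the comparison itself leaves 1 slide, so the values that follow are fitted coefficients and not slide means. Each includes a correction for the channel of the mutant, taken from the slides of the other comparisons. The AHP1 slide that remains in YPD without replicate 1 itself read -1.20. AHP1 in YPD was -1.95 without replicate 1 (mutant in channel 2) and -1.24 without replicate 2, and TRX1 was -1.57 and -0.82. SOD1 was 0.69 and 1.12. In the aft1 comparison SRX1 was -0.72 without replicate 1 and -1.68 without replicate 2, and CCP1 -0.78 and -1.24. All of these kept the sign of the reported mean. The small values were less steady. SOD1 in hydroxyurea for Y18daft2 ran from -0.15 to 0.24, and in the aft1 comparison from -0.20 to 0.23. AHP1 in the aft1 comparison ran from -0.13 to 0.36. If the columns had been deposited already turned to mutant over wild type, the values would be -0.08 for AHP1, -0.21 for TRX1 and -0.07 for SOD1 in YPD, and 0.34 for SRX1 and 0.17 for CCP1 in the aft1 comparison.

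**Figure D5:**
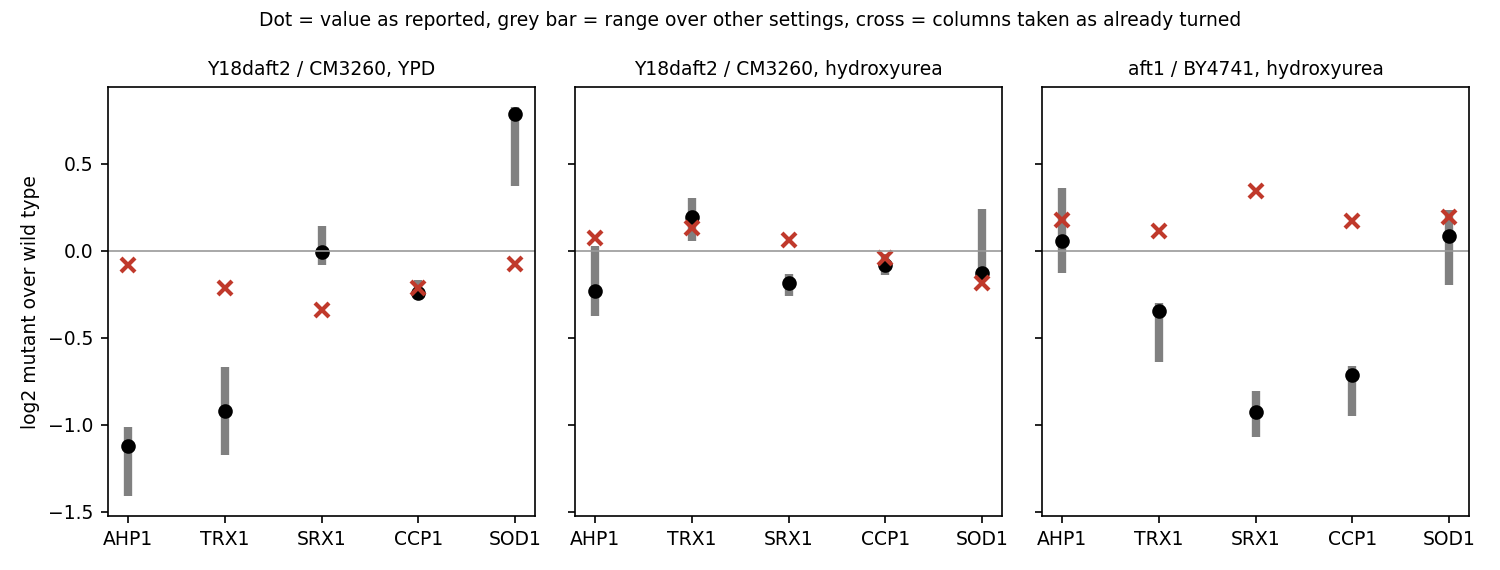
Log2 ratio of mutant over wild type (vertical axis) for each gene and comparison, with the reported value as a dot, the range over the other treatments of the data as a grey bar, and the value with columns taken as already turned as a red cross. The bars of AHP1, TRX1 and SOD1 in YPD and of SRX1, CCP1 and TRX1 in the aft1 comparison stay on one side of 0, and the crosses of all 5 genes lie between -0.34 and 0.34.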

How the data were processed

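RNA was measured on 6 slides with 2 labelled channels, 2 slides per comparison, with mutant and wild type in exchanged channels per the labels. The authors deposited 12 columns of signed log ratios for 6912 spots, a weak and a strong scan of each slide, taken here as log2. Background subtraction, spot filters, normalisation, log base, dyes, ratio direction and depth of signal are not given in the sources used here. Column medians ran from -0.53 to 0.85, so columns were not centred.

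Exact zeros of strong scans were set missing and columns median-centred. The common trend was removed, in channel orientation, by loess (span 0.3) of each column on the mean of the 8 columns of the other comparisons, and ratios were then turned to mutant over wild type. The scans of a slide and the spots of a gene were then averaged. Of 3731 annotated probes, 3344 had 1 symbol (3127 genes) and 387 several. Genes were fitted with limma 3.58.1 in R 4.3.3, with a coefficient per comparison and one for the channel of the mutant over all 6 slides, and Benjamini-Hochberg adjustment over 3127 genes at 0.05. The fit was tested on simulated data. The written plan did not say which columns formed the trend position, and a position from all 12 columns was added as an alternative after seeing the data. The members, lists and normalisation were chosen with earlier results of these data known. Named genes were the 5 members, listed partners, the 3 listed genes farthest from 0 per comparison and the 3 genes nearest to each member.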

Additional observations from a re-analysis of the deposited data

Results flagged for a closer look

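TRX1 drew attention because every slide of one comparison lay on one side of 0 and every slide of another on the other side. In Y18daft2 over CM3260 it read -0.71 and -1.14 in YPD and 0.06 and 0.32 in hydroxyurea, a difference of 1.11 log2 units. In hydroxyurea it read -0.46 and -0.23 in aft1 over BY4741, and aft1 minus Y18daft2 was -0.54. Neither difference was tested, since TRX1 was selected on these values. When columns were only median-centred, the hydroxyurea slides of Y18daft2 read -0.26 and -0.46 (weak and strong scans, mutant in channel 2) and 0.84 and 1.10 (mutant in channel 1) for TRX1, of opposite sign.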

How the results depend on the processing

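The 29 further oxidant defence genes had 0 past the threshold in each comparison, and this held except in these cases. With only the slides of the comparison fitted, 3 passed in aft1 (APE1, GPX2 and TRX2). With the trend position from all 12 columns, 1 passed in aft1 (APE1) and 1 in YPD (ATR1). Their aft1 median of -0.13 was -0.36 as deposited, 0.081 with columns taken as already turned, and between -0.27 and -0.095 when a slide was left out.

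Counts over all genes were less stable, and the cause was not tested. In YPD (8 genes) the count was 2 as deposited, 5 median-centred, 14 from weak scans, 1 from strong scans, 15 without the channel coefficient, 0 with only its own slides, 84 with the position from all 12 columns, and from 0 (without replicate 1 of Y18daft2 in hydroxyurea) to 12 (without replicate 2 of YPD) when a slide was left out. In hydroxyurea for Y18daft2 (3 genes) it was 1 from strong scans, 7 with only its own slides, 5 from all 12 columns and from 0 (without either of its own slides) to 5 (without replicate 2 of YPD). For aft1 (6 genes) it was 3 as deposited, 0 from strong scans, 57 with only its own slides, 44 from all 12 columns and from 0 (without replicate 1 of Y18daft2 in hydroxyurea) to 9 (without replicate 2 of YPD). Columns taken as already turned gave 0 in each.

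With the position from all 12 columns, AHP1, TRX1 and SOD1 in YPD and SRX1 and CCP1 in aft1 were among the genes called. SRX1 and CCP1 were also called in aft1 with only its own slides, and SRX1 without replicate 2 of YPD. AHP1 in YPD was called with print blocks centred, weak scans, no channel coefficient, the looser gene filter or all 12 columns, and in no other setting run. Requiring only 1 slide per comparison changed nothing, since all 3127 genes were on all 6 slides. Strong scans alone gave AHP1 and SOD1 no fitted value, since their exact zeros left them without all 6 slides. Promoter motifs were not analysed here. Mutant and wild type are already paired within each ratio. Slides were not paired further across comparisons, because the labels give them no replicate numbers. Replicate 1 here means the slide with the mutant in channel 2, and replicate 2 the slide with it in channel 1. Each slide holds mutant and wild type, and the channel coefficient already separates the slides by the channel of the mutant.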
